A study of Mus musculus with 10 samples.

Results

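The *Ugt2* and *Ugt3* genes encode enzymes that attach a sugar to lipophilic molecules, and 10 of the 16647 genes counted in the livers were taken here as this group. They are *Ugt2a3*, *Ugt2b1*, *Ugt2b5*, *Ugt2b34*, *Ugt2b35*, *Ugt2b36*, *Ugt2b37* and *Ugt2b38*, which make up the 8 counted *Ugt2* genes of the group, and the pair *Ugt3a1* and *Ugt3a2*. They were taken by gene name, through the match of Entrez gene numbers to symbols. The list was drawn up with earlier results of these data known, so it is not blind to them. For *Ugt2b34*, the paper had already checked its sequencing result by RT-qPCR. Liver RNA came from male mice of one humanized PXR-CAR-CYP3A4/3A7 line, so that control animals carried the same human receptors and CYP3A genes as treated ones. All animals were 10–15 weeks old when a high-fat diet (HFD) began, stayed on it for 8 weeks before treatment, and remained on it during treatment. MI-883, a small molecule studied for its action on the xenobiotic receptors CAR and PXR, was given by oral gavage at 5 mg/kg 3 times per week for 4 weeks to 5 mice, and 5 control mice received the vehicle. Every library was made from another animal, and livers of chow-fed or non-humanized mice were not analysed here. The question was how the *Ugt2* and *Ugt3* genes differed between these groups of livers.

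UDP-glucuronosyltransferases of the endoplasmic reticulum move glucuronic acid from UDP-glucuronic acid onto steroids, bile acids, phenols and drugs, which makes them water soluble and ready for export into bile or blood. The UGT2B enzymes are known for conjugating steroid hormones and many drugs in the liver, and human UGT2A3 for conjugating bile acids. The UGT3 enzymes belong to the same superfamily but prefer other sugar donors, UDP-N-acetylglucosamine for human UGT3A1 and UDP-glucose or UDP-xylose for human UGT3A2. CAR and PXR are nuclear receptors that raise transcription of drug-conjugating genes when a ligand activates them.

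All 8 *Ugt2* genes lie in one cluster on chromosome 5 of GRCm38, between positions 86889770 and 87424203, and the *Ugt3* pair lies on chromosome 15 between 9279822 and 9370955. Along chromosome 5 the order is *Ugt2b34* (86889770–86906937), *Ugt2b1* (86916639–86926503), *Ugt2b35* (87000860–87013274), *Ugt2b36* (87065927–87092555), *Ugt2b5* (87124946–87140340), *Ugt2b37* (87240492–87254788), *Ugt2a3* (87324972–87337195) and *Ugt2b38* (87409939–87424203). *Ugt2b35* is read from the plus strand and the other *Ugt2* genes from the minus strand. *Ugt3a1* (9279822–9315038) and *Ugt3a2* (9335551–9370955) are both on the plus strand.

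RefSeq promoters of GRCm38.p6 were found for 9 of the 10 genes, all but *Ugt3a2*. The 130 bases that end just before the RefSeq start are shown for 7 *Ugt2* genes, since they allow the genes that were higher with MI-883 to be read beside those that were not. Capitals mark matches to GTTANNNNTTAAC, letters that recur in these promoters. The order below follows the chromosome, with *Ugt2a3* last because its window holds no such match.
Ugt2b34: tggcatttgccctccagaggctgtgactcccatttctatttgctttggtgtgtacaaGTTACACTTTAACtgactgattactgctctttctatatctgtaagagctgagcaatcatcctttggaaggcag
Ugt2b1: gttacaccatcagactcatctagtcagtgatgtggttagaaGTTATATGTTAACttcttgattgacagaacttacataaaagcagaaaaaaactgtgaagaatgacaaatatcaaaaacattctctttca
Ugt2b35: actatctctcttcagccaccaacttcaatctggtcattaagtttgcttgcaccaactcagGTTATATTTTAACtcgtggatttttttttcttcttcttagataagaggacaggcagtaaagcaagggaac
Ugt2b36: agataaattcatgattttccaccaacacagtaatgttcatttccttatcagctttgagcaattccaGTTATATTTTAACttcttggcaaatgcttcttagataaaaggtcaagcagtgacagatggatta
Ugt2b5: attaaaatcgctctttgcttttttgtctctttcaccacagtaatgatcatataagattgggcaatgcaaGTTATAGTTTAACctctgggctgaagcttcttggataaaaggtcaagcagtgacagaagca
Ugt2b38: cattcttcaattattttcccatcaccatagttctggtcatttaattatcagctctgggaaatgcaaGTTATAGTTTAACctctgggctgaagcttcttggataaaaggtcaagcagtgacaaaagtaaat
Ugt2a3: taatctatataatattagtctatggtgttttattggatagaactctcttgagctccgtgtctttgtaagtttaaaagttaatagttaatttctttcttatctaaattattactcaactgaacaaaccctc

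The windows are chr5:86906938-86907067 for *Ugt2b34*, chr5:86926504-86926633 for *Ugt2b1*, chr5:87000730-87000859 for *Ugt2b35* and chr5:87092556-87092685 for *Ugt2b36*. They are chr5:87140341-87140470 for *Ugt2b5*, chr5:87424204-87424333 for *Ugt2b38* and chr5:87337196-87337325 for *Ugt2a3*, all on the strand of the gene. In the *Ugt2b* windows the match begins between base -89 (*Ugt2b1*) and base -61 (*Ugt2b5*) counted back from the start, at -73 in *Ugt2b34* and at -70 in *Ugt2b35*. Of the 9 promoters of 250 bases before to 50 bases after the start, 8 held GTTANNNNTTAAC on either strand, compared with 0.192% of all 27025 RefSeq promoters of that length. The letters were chosen after these promoters had been read, and homologous genes share sequence by descent, so the count is a description. The hexamer AGGTCA, recognised by many nuclear receptors, was present in 5 of the 9, those of *Ugt2b5*, *Ugt2b36*, *Ugt2b37*, *Ugt2b38* and *Ugt2b35*, and in 16.0% of all promoters. In all of these but *Ugt2b35* it lies in the same run of letters, so the matches are not independent and this count too is a description. In *Ugt2b35* it begins at base -215, outside the window shown. AGTTCA was present in 2 of 9 and in 14.0% of all, TATAAA in 1 of 9 and 14.2%, GTTAAT in 2 of 9 and 7.20%, and CAAAGTCCA, an HNF4 core, in 0 of 9 and 0.477%, each sought on both strands. GTTAAT overlaps the longer letters in *Ugt3a1*, and in *Ugt2a3* it begins at bases -54 and -47. The windows of *Ugt2b5* and *Ugt2b38* share a long run of letters around the match and downstream of it. GTTANNNNTTAAC was present both in *Ugt2b34* and *Ugt2b35*, which were higher with MI-883, and in *Ugt2b36* and *Ugt2b5*, for which no difference was detected.

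The libraries held 24014461–36221514 counts in control and 23513665–28349963 in MI-883-treated livers, so 3 counts, the floor used here, equal 0.0828–0.128 CPM (counts scaled to library size). Hepatocyte markers summed to 79743–93834 CPM in the control group and 67270–84558 CPM after MI-883, and *Cyp2b10*, a CAR target gene, was at 36.5 ± 9.10 and 1019 ± 299 CPM (S.D., n = 5 livers each), a log2 difference of 4.80. Markers of bile duct (25.0–117 and 35.1–190 CPM), Kupffer cells and leukocytes (197–278 and 153–351), endothelium (102–137 and 112–154) and stellate cells (211–323 and 230–377) overlapped between the groups, and none of their genes passed the test. The summed kidney markers, 5 genes, were at 0.195–1.71 CPM in control livers but at 28.3 CPM in MI-883 replicate 2 and 11.3 CPM in replicate 3, with 0.752–3.16 CPM in the other treated livers. None of the 3 kidney markers with enough counts passed the test, but kidney is an organ that also expresses *Ugt2* and *Ugt3* genes, so values without these livers are given after the results for *Ugt2b34* and *Ugt2b35*. The 4 measured intestinal markers summed to 223–249 CPM in control and 133–182 CPM in treated livers. Nearly all of this sum was *Fabp2*, which passed the test, at 223–249 CPM in control and 133–182 CPM in treated livers. *Vil1* and *Muc2* reached at most 0.407 and 0.250 CPM in any liver, and *Lct* was at or under the floor. The difference in the sum is therefore that of *Fabp2* alone, and its part in the results was not tested. Of the pancreas markers, 2 were in the table, at 13.7–23.1 and 15.3–26.4 CPM in sum with *Cpa1* at or under the floor. In bulk tissue, fewer cells of a type and less RNA per cell cannot be told apart.

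Per length of transcript, the genes spanned a wide range of levels in control livers. *Ugt2b5* stood highest at 577 ± 90.9 CPM per kilobase of exon (S.D., n = 5), rank 88 of 13038 genes with a known length, followed by *Ugt2b36* at 422 ± 54.8 CPM per kilobase. The ranges of these leading genes overlapped between livers, but *Ugt2b5* was above *Ugt2b36* within every control liver. The log2 ratio of their CPM, before division by length, was 0.10 to 0.40 there, and *Ugt2b5* is the shorter gene. *Ugt2b1* came next at 260 ± 50.3 CPM per kilobase, with no liver in the range of *Ugt2b36* above it or of *Ugt2b34* below it. *Ugt2b34* (146 ± 11.04), *Ugt2a3* (146 ± 20.4) and *Ugt3a2* (119 ± 9.60 CPM per kilobase) overlapped with one another. *Ugt2b35* followed at 76.7 ± 10.01 CPM per kilobase, and *Ugt3a1* at 26.8 ± 2.70, each apart from the genes above and below. The lowest levels were those of *Ugt2b38* at 7.39 ± 1.87 and *Ugt2b37* at 2.12 ± 0.609 CPM per kilobase, again with no overlap, and *Ugt2b37* ranked 6955 of 13038. With the longest transcript in place of all exons as the length, *Ugt3a2* was at 158 CPM per kilobase, above *Ugt2b34* and *Ugt2a3*, and *Ugt3a1* at 31.9. In MI-883-treated livers the levels were 613 for *Ugt2b5*, 462 for *Ugt2b36*, 352 for *Ugt2b1*, 201 for *Ugt2b34* and 114 CPM per kilobase for *Ugt2b35*.

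Reads of *Ugt2b5* and *Ugt2b38* are the least certain to be placed. Of all 100-base stretches of *Ugt2b5* transcripts, 24.7% also occur in another gene, and for *Ugt2b38* the share is 24.2%, with each gene as the other's partner. The share was 1.06% for *Ugt2b37*, 0.595% for *Ugt2a3*, 0.278% for *Ugt2b34* and 0 for *Ugt2b1*, *Ugt2b35*, *Ugt2b36*, *Ugt3a1* and *Ugt3a2*. The values of *Ugt2b5* and *Ugt2b38* are therefore reported as uncertain, the more so for *Ugt2b38*, the lower of the pair, while *Ugt2b34* and *Ugt2b35* have few or no such stretches.

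After treatment with MI-883, 2 of the 10 genes were significantly higher, *Ugt2b34* and *Ugt2b35*, and 0 were lower (edgeR, adjusted *P* under 0.05 over 13219 tested genes). Of all tested genes, 0.764% were called higher and 0.265% lower, or 1.03% in either direction. All 10 genes passed the minimum of 60 counts summed over the livers. Without the adjustment, *Ugt2b34*, *Ugt2b35*, *Ugt2b1* and *Ugt2b37* had *P* under 0.05 in the upward direction, as had 8.09% of all tested genes, and none of the 10 had it in the downward direction, as had 7.49% of all tested genes. The log2 difference was positive for 7 of the 10, compared with 51.0% of all tested genes, and its median was 0.26 compared with 0.005 over all tested genes. DESeq2, used as an alternative, called 3 of the 10 higher, adding *Ugt2b1*, against a background of 2.20%.

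**Figure D1:**
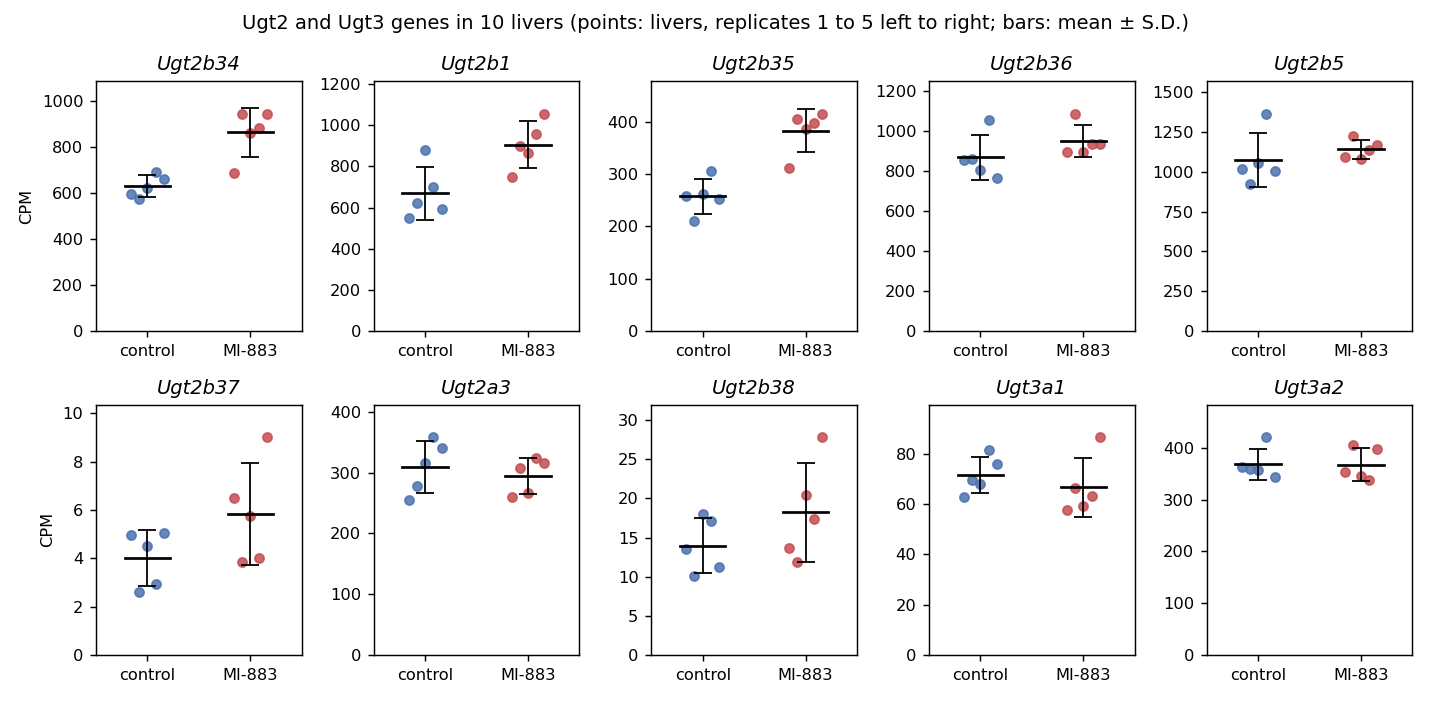
CPM of each gene in each liver, in chromosome order, with the vertical axis starting at 0 and a scale of its own for each gene. Points are livers (5 control, 5 MI-883), the horizontal bar is the mean and the whiskers the S.D. The MI-883 points of *Ugt2b35* all lie above the control points, those of *Ugt2b34* and *Ugt2b1* mostly do, and the remaining genes overlap widely.

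*Ugt2b35*, a member of the *Ugt2b* subfamily, was at 257, 211, 262, 306 and 252.02 CPM in control livers 1 to 5 and at 311, 405, 385, 397 and 415 CPM in MI-883 livers 1 to 5. Every treated liver was above every control liver, which held for this gene alone among the 10 and for 2.05% of all tested genes. None of the 10 was below every control liver in all treated livers, as were 1.93% of tested genes. The mean was 258 ± 33.6 CPM without and 383 ± 41.6 CPM with MI-883, a 1.49-fold difference with a 95% confidence interval of 1.27 to 1.74. On the log2 scale this was 0.57 with a standard error of 0.105 (edgeR, adjusted *P* = 0.0205, exact two-sided permutation *P* = 0.00794, the smallest that 5 livers against 5 can give). Treated liver 1 was the lowest by far and only just above control liver 4. When single livers were left out, the log2 difference stayed between 0.51 and 0.64, and the adjusted *P* of edgeR lay between 0.0080 and 0.0669. The gene lost its call in 4 of 10 such fits, those without control 3, control 5, MI-883 2 or MI-883 5.

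*Ugt2b34*, the first gene of the cluster, was at 596, 577, 624, 693 and 664 CPM in control livers and at 688, 944, 862, 886 and 947 CPM in MI-883 livers. Of the treated livers, 4 of 5 exceeded the highest control, and treated liver 1 lay between the control values. The log2 difference was 0.46 with a standard error of 0.0976, or 1.37-fold with a 95% confidence interval of 1.19 to 1.59 (edgeR, adjusted *P* = 0.0455, exact two-sided permutation *P* = 0.0159). This call was the weaker of the pair. It remained past the threshold in 1 of 10 fits that left out a liver, the one without MI-883 1, where the adjusted *P* of edgeR was 0.0110, and in the other fits it rose to as much as 0.129. The log2 difference itself stayed between 0.42 and 0.53 in these fits.

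Both differences were nearly as large without the livers that held kidney markers. Without MI-883 replicate 2 the log2 difference was 0.55 for *Ugt2b35* (edgeR, adjusted *P* = 0.0620) and 0.42 for *Ugt2b34* (adjusted *P* = 0.0997). With replicates 2 and 3 both left out, it was 0.54 for *Ugt2b35* (edgeR, adjusted *P* = 0.155) and 0.41 for *Ugt2b34* (adjusted *P* = 0.244), so neither passed the threshold with 3 treated livers, and 54 of all tested genes did. In that fit the log2 differences were 0.46 for *Ugt2b1*, 0.08 for *Ugt2b5*, 0.09 for *Ugt2b36*, 0.71 for *Ugt2b37*, 0.49 for *Ugt2b38*, -0.04 for *Ugt2a3*, -0.05 for *Ugt3a1* and -0.02 for *Ugt3a2*, none of them past the threshold. *Ugt1a9* and *Abcc4* were still called there, while *Ugt1a1*, *Abcc3* and *Entpd5* were not (edgeR, adjusted *P* = 0.166, 0.103 and 0.203).

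*Ugt2b1*, whose rat counterpart is known for conjugating bisphenol A, lies between *Ugt2b34* and *Ugt2b35* on the chromosome. It was at 551, 621, 880, 700 and 595 CPM in control livers and at 749, 896, 866, 958 and 1055 CPM in treated livers. Control liver 3 stood apart from the other controls and inside the range of the treated livers, and 3 of 5 treated livers exceeded it. The log2 difference was 0.44 with a 95% confidence interval of 0.15 to 0.72 (edgeR, adjusted *P* = 0.146, unadjusted *P* = 0.00524), while DESeq2 gave an adjusted *P* of 0.0319. Its call therefore depended on the test, and edgeR did not call it in any of the 10 fits that left out a liver, where the lowest adjusted *P* was 0.0516.

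The genes with the highest *Ugt2* levels showed no detectable difference. *Ugt2b5* was at 925–1363 CPM in control and 1077–1221 CPM in treated livers, a log2 difference of 0.09 with a 95% confidence interval of -0.14 to 0.31 (edgeR, adjusted *P* = 0.718). Summed with *Ugt2b38*, with which it shares sequence, it was at 1087 ± 171 and 1157 ± 58.9 CPM. *Ugt2b36* was at 765–1059 CPM in control and 894–1088 CPM in treated livers, with a log2 difference of 0.13 and a 95% confidence interval of -0.08 to 0.34 (edgeR, adjusted *P* = 0.560). The upper bounds correspond to 1.24-fold for *Ugt2b5* and 1.27-fold for *Ugt2b36*, both under the 1.49-fold estimate of *Ugt2b35*. Both bounds lie inside the 95% confidence intervals of *Ugt2b34* (1.19 to 1.59) and *Ugt2b1* (1.11 to 1.64). Single livers moved these small estimates. Without control replicate 4 the log2 difference was 0.19 for *Ugt2b5* and 0.21 for *Ugt2b36*. In that fit the unadjusted edgeR *P* was 0.0382 and 0.0336, and the adjusted *P* 0.374 and 0.361. Without control replicate 2 the log2 difference was 0.04 for *Ugt2b5*. Without control replicate 5 or MI-883 replicate 2 it was 0.09 or 0.08 for *Ugt2b36*.

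*Ugt2a3*, whose human counterpart is known for conjugating bile acids, was at 255–358 CPM in control and 260–324 CPM in treated livers. Its log2 difference was -0.07 with a 95% confidence interval of -0.30 to 0.16 (edgeR, adjusted *P* = 0.777), the lowest estimate among the *Ugt2* genes. It lay between -0.13 (without control replicate 1) and -0.01 (without control replicate 4) when single livers were left out. The genes with the lowest levels, *Ugt2b37* and *Ugt2b38*, had log2 differences of 0.55 and 0.38, but their livers were widely scattered. Without MI-883 replicate 5 these differences were 0.34 and 0.18 (edgeR, unadjusted *P* = 0.177 and 0.376). With all livers the unadjusted edgeR *P* of *Ugt2b37* was 0.0496, and its exact two-sided permutation *P* was 0.135. Leaving out other single livers also moved the unadjusted edgeR *P* to either side of 0.05. It was 0.0218 without MI-883 replicate 2 and 0.117 without control replicate 4. *Ugt2b37* was at 2.62–5.04 CPM in control and 3.85–9.01 CPM in treated livers, from 84 to 254 counts per liver (edgeR, adjusted *P* = 0.320). *Ugt2b38* was at 10.03–18.1 CPM in control and 11.9–27.8 CPM in treated livers, from 255 to 784 counts (edgeR, adjusted *P* = 0.424). Treated liver 5 was the highest of all livers for both genes.

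Neither gene of the *Ugt3* pair differed detectably. *Ugt3a1* was at 62.9–81.4 CPM in control and 57.8–86.5 CPM in treated livers, a log2 difference of -0.10 with a 95% confidence interval of -0.34 to 0.14 (edgeR, adjusted *P* = 0.684). Without MI-883 replicate 5 its difference was -0.22 (edgeR, unadjusted *P* = 0.0254, adjusted *P* = 0.342), and without control replicate 4 it was -0.05. *Ugt3a2* was at 344–421 and 337–406 CPM, with means of 369 ± 29.8 and 368 ± 31.5 CPM and a 95% confidence interval of the log2 difference of -0.18 to 0.17 (edgeR, adjusted *P* = 0.991). The estimate for *Ugt3a2* was so close to 0 that its sign changed with the scaling, being positive with total counts. In sum the *Ugt3* pair was at 440 ± 34.5 CPM in control and 435 ± 40.3 CPM in treated livers.

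**Figure D2:**
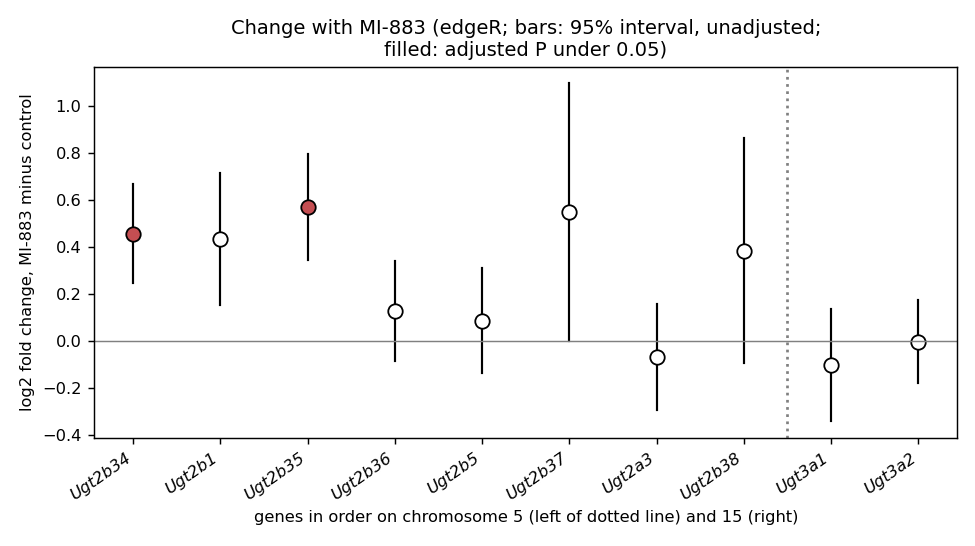
Log2 difference between MI-883-treated and control livers (vertical axis) for the 10 genes in their order on chromosomes 5 and 15 (horizontal axis, the dotted line parts the chromosomes). Points are edgeR estimates, bars unadjusted 95% confidence intervals, and filled points have an adjusted *P* under 0.05. The 3 leftmost genes lie between 0.44 and 0.57, while *Ugt2b36*, *Ugt2b5* and *Ugt2a3* lie between -0.07 and 0.13, and the wide bars are those of *Ugt2b37* and *Ugt2b38*.

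In chromosome order, *Ugt2b34*, *Ugt2b1* and *Ugt2b35* are the first 3 genes of the cluster. Their summed expression was 1558 ± 167 CPM in control and 2153 ± 251 CPM in treated livers, a ratio of means of 1.38, with the lowest treated liver (1748 CPM) just under the highest control (1766 CPM). The other 5 *Ugt2* genes summed to 2270 ± 299 and 2409 ± 153 CPM, a ratio of 1.06. This grouping was made after the values had been seen and is given without a test. All 8 *Ugt2* genes together were at 3828 ± 417 CPM in control and 4562 ± 368 CPM in treated livers, a ratio of 1.19 with overlapping groups. The genes that flank the clusters showed no detectable difference. *Ythdc1*, 53.1 kb before *Ugt2b34*, had a log2 difference of -0.13 (edgeR, adjusted *P* = 0.528), and the sulfotransferase gene *Sult1b1*, 89.1 kb beyond *Ugt2b38*, one of 0.01 (adjusted *P* = 0.978).

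Ratios within a liver show how the genes moved against each other, free of library scaling. Among 45 pairs of the 10 genes, the log2 ratio separated the groups completely in 9, compared with 4.27% of all pairs of expressed genes. All of these 9 but *Ugt2a3* with *Ugt2b1* include *Ugt2b34* or *Ugt2b35*, which were already called from the same counts. The pairs are therefore not independent, and their number is a description. The ratio of *Ugt2a3* to *Ugt2b35* fell by 0.64, to *Ugt2b34* by 0.52 and to *Ugt2b1* by 0.51 on the log2 scale, with no overlap of the groups. *Ugt2b35* also separated from *Ugt2b5*, *Ugt2b36*, *Ugt3a1* and *Ugt3a2*, and *Ugt2b34* from *Ugt3a1* and *Ugt3a2*. The ratio of *Ugt2b34* to *Ugt2b35* overlapped between the groups, at 1.30 ± 0.119 on the log2 scale in control and 1.17 ± 0.030 in treated livers.

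Expressed as shares of the summed *Ugt2* level per kilobase, the makeup of the family shifted by up to a few percentage points. *Ugt2b5* provided 35.1 ± 1.74% in control and 32.4 ± 1.23% in treated livers, and *Ugt2b36* 25.8 ± 2.08% and 24.4 ± 1.42%. *Ugt2b1* went from 15.9 ± 2.62% to 18.5 ± 1.42%, *Ugt2b34* from 8.97 ± 0.652% to 10.6 ± 0.680%, and *Ugt2a3* from 8.93 ± 0.929% to 7.35 ± 0.380%. *Ugt2b35* was the only gene whose share did not overlap between the groups, with 4.21–5.03% in control and 5.45–6.35% in treated livers. *Ugt2b38* and *Ugt2b37* stayed under 1%, at 0.448% and 0.132% in control livers.

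**Figure D3:**
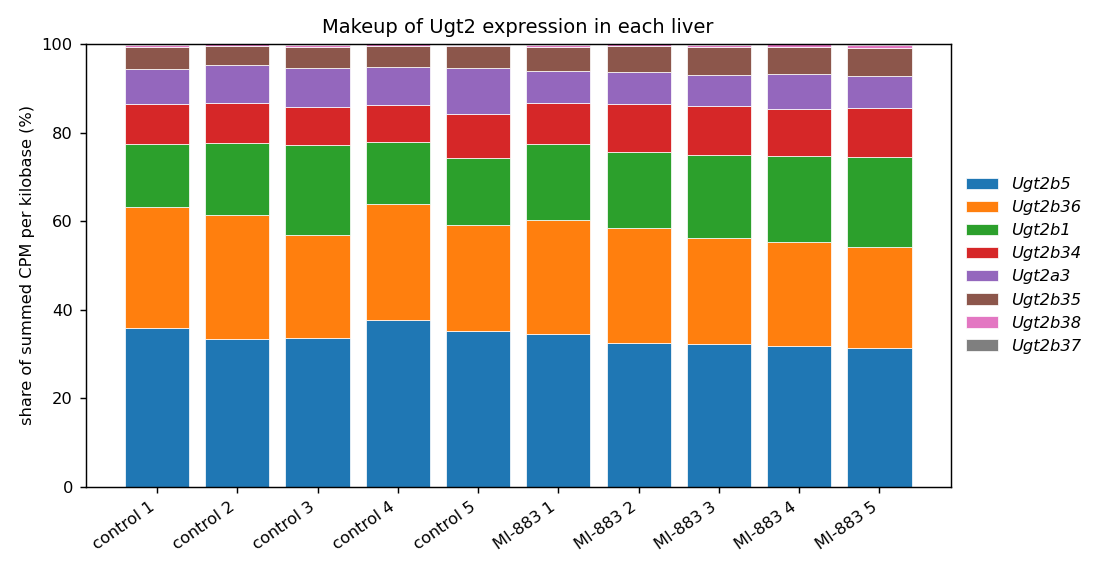
Makeup of *Ugt2* expression in each of the 10 livers, as the percent of summed CPM per kilobase that each gene contributes (stacked bars, 0 to 100%). *Ugt2b5* and *Ugt2b36* fill the lower part of every bar, and the *Ugt2b35* band is thicker in the 5 MI-883 livers (5.45–6.35%) than in the 5 control livers (4.21–5.03%).

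Within a group, the genes also differed in how much the livers varied. The standard deviation of log2 CPM around the group means was 0.472 for *Ugt2b37* and 0.429 for *Ugt2b38*, at the 94.5th and 92.7th percentile of 11613 expressed genes, whose median was 0.165. *Ugt3a2* was the steadiest of the 10 at 0.117, the 23.9th percentile, and the others lay between 0.150 (*Ugt2b36*) and 0.227 (*Ugt2b1*). Control liver 4 was the highest control for *Ugt2b34*, *Ugt2b35*, *Ugt2b36*, *Ugt2b5*, *Ugt2a3*, *Ugt3a1* and *Ugt3a2*, but not for *Ugt2b1*, *Ugt2b37* or *Ugt2b38*.

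**Figure D4:**
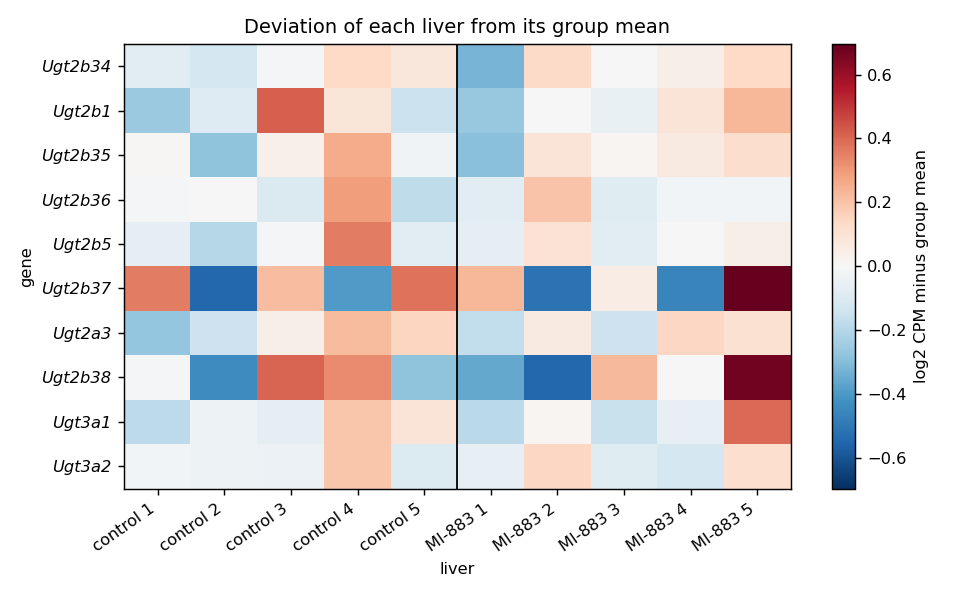
Deviation of log2 CPM from the group mean for each gene (rows, chromosome order) in each liver (columns, control left and MI-883 right of the line). Red is above and blue below the mean of the liver's own group, and the strongest colours are those of *Ugt2b37* and *Ugt2b38*, the genes with standard deviations of 0.472 and 0.429.

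After the group means were removed, *Ugt2b34* and *Ugt2b35* had a Pearson's r of 0.88 over the 10 livers. It was 0.80 without the 2 livers farthest from their group mean in the gene named first. *Ugt2b5* and *Ugt2b36* had an r of 0.80, and 0.83 without the farthest livers. The r of *Ugt2b36* with *Ugt3a2* was 0.84 but 0.42 without them, and that of *Ugt2b36* with *Ugt2b37* was -0.59 and -0.33, so these values rest on few livers. The order of the pairs changed when such livers were left out. Over all livers and 11613 genes, the gene most like *Ugt2b34* was *Ugt2b35* (r = 0.97, Spearman's rho = 0.95, r = 0.96 without the 2 livers farthest from the median), and the next were *Pik3cb* (r = 0.96) and *Cyp2a5* (r = 0.95). For *Ugt2b35* the most alike gene was in turn *Ugt2b34*. Such values include the difference between the groups and share library size, and they were searched over many genes, so they are a description. *Tsku* came first for *Ugt2b1* (r = 0.98), *Adtrp* for *Ugt2a3* (r = 0.97) and *Lamp2* for *Ugt3a2* (r = 0.92).

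Lists of genes that act before and after glucuronidation were read beside the *Ugt2* and *Ugt3* genes. Among the other UDP-glycosyltransferases, 7 of 12 listed genes had enough counts, and 2 rose, the bilirubin-conjugating *Ugt1a1* and the phenol-conjugating *Ugt1a9*, with 0 lower. When single livers were left out, the *Ugt1a1* call held in 4 of 10 fits, with an adjusted *P* of up to 0.0764, and the *Ugt1a9* call in 10 of 10. The log2 difference of *Ugt1a9* was 2.06, from 14.3 ± 4.16 to 60.2 ± 18.3 CPM (edgeR, adjusted *P* = 8.4e-04), beside 0.57 for *Ugt2b35*. The *Ugt1a* genes share their last exons, so reads there cannot be told apart. The list's median log2 difference was 0.55, compared with 0.26 for the *Ugt2* and *Ugt3* genes and 0.005 over all tested genes.

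Of 10 genes listed around the supply of UDP-glucuronic acid, 1 rose, and it is not one that makes this sugar donor. This was *Entpd5*, which hydrolyses the UDP that conjugation releases, from 465 ± 35.2 to 634 ± 80.3 CPM (log2 difference 0.45, edgeR, adjusted *P* = 0.0444). Its call held in 2 of 10 fits that left out a liver, with an adjusted *P* of edgeR of up to 0.123, and was lost with total counts (adjusted *P* = 0.0558). *Ugdh*, the dehydrogenase that makes UDP-glucuronic acid, was at 219 ± 46.1 and 313 ± 45.0 CPM (log2 difference 0.52, edgeR, adjusted *P* = 0.112, DESeq2 0.0156). *Ugp2*, which makes its precursor UDP-glucose, and *Slc35d1*, a carrier of UDP-glucuronic acid into the endoplasmic reticulum, had log2 differences of 0.01 (adjusted *P* = 0.966) and 0.03 (adjusted *P* = 0.925) in edgeR. Among 9 genes of glucuronate use and return, 0 passed the edgeR test. Of these 9, 3 had an unadjusted edgeR *P* under 0.05 and DESeq2 called 2, each count with genes in both directions. The last 2 counts both include a gene near the floor, with 1 to 47 counts per liver and 0.668 ± 0.818 CPM in treated livers. *Gusb*, the glucuronidase that reverses conjugation, had a log2 difference of 0.22 (edgeR, adjusted *P* = 0.210).

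Of 11 genes for glucuronide efflux and uptake, 2 rose and 0 fell, both exporters of the membrane that faces the blood. *Abcc3* went from 475 ± 33.5 to 656 ± 75.9 CPM (log2 difference 0.46, edgeR, adjusted *P* = 0.0282), close in size to *Ugt2b34*, and *Abcc4* from 3.43 ± 0.703 to 18.9 ± 4.06 CPM (log2 difference 2.45, adjusted *P* = 7.2e-06). The *Abcc3* call held in 3 of 10 fits that left out a liver, with an adjusted *P* of edgeR of up to 0.0907, and the *Abcc4* call in 10 of 10. *Abcc2*, the exporter into bile, had a log2 difference of 0.26 (edgeR, adjusted *P* = 0.455). Sulfotransferases compete for many of the same substrates, and their list also holds the enzymes that make the sulfate donor. The 10 tested genes of this list gave 0 calls in edgeR, 3 with an unadjusted *P* under 0.05 and 2 in DESeq2. The 3 and the 2 each held genes in both directions. The 16 liver transcription factors and receptors listed as regulators of *Ugt2* genes gave 0 calls in edgeR. Of these 16, 2 had an unadjusted edgeR *P* under 0.05 and 1 was called by DESeq2, all lower with MI-883. The median log2 difference of these regulators was -0.06. Among all tested genes, 8.09% had an unadjusted edgeR *P* under 0.05 upward and 7.49% downward, and DESeq2 called 2.20% higher and 1.30% lower.

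**Figure D5:**
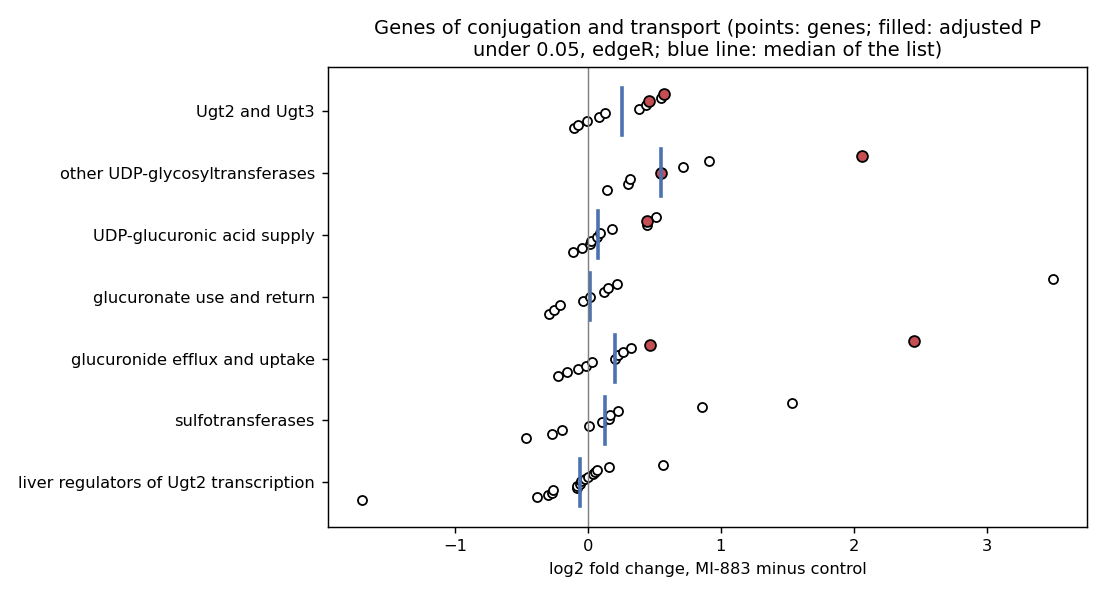
Log2 difference between MI-883-treated and control livers (horizontal axis) for every tested gene of the *Ugt2* and *Ugt3* group and of 6 lists (rows). Points are genes, filled points have an adjusted *P* under 0.05 in edgeR, and the blue line is the median of the row, 0.26 for *Ugt2* and *Ugt3* genes and 0.55 for the other UDP-glycosyltransferases.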

How the data were processed

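Liver RNA of 5 control and 5 MI-883-treated mice was sequenced. The authors aligned the reads to mm10 with STAR, after trimming with fastp 0.23.0 per the labels, and counted them with featureCounts. They deposited raw counts per gene under Entrez numbers, without normalization. The gene annotation and strand setting are not given in the sources used here. Symbols and promoters came from RefSeq, which matched 16644 of 16647 genes, and exon lengths from GENCODE M21.

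A sum of 60 counts over the livers was the minimum for testing, which 13219 genes reached and 3428 did not. The test was that of edgeR 4.0.16 (R 4.3.3), using TMM normalization, quasi-likelihood fits and Benjamini-Hochberg adjustment at 0.05. CPM are counts scaled to the TMM-adjusted library size. Log2 CPM for correlations used a prior count of 2, and genes with a mean of at least 1 CPM were compared. The exact two-sided permutation test used all 252 arrangements of mean log2 CPM. Library totals of 23513665–36221514 counts set the precision, and the floor of 3 counts covers counting error only.

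Alternatives were DESeq2 1.42.0, its size factors, total counts, other filters, a replicate block, a surrogate variable from sva 3.50.0, stretches of 50 and 150 bases, and leaving out each liver. The genes described are the 10 genes, those most like them, and the called genes and fixed core genes of each list. The genes, lists and tests were chosen with earlier results of these data known, and DESeq2 with 60 counts in every liver, the motif and leaving out 2 livers together were added after these data were seen. Protein identity was not analysed here. A listed gene is not reported here by name.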

Additional observations from a re-analysis of the deposited data

Results flagged for a closer look

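A liver was listed here when the distance to its closest neighbour in the group exceeded the 95% critical value of Dixon's test for 5 samples, as a part of the group's range. This was met in 3 of 40 groups, which were those of 20 genes in control and treated livers, while chance gives about 2.0. MI-883 replicate 1 was low for *Ugt2b35*, at 311 CPM with the nearest treated liver at 385 CPM. MI-883 replicate 2 was high for *Ugt2b36*, at 1088 CPM with the nearest at 937 CPM. Control replicate 4 was high for *Ugt3a2*, at 421 CPM with the nearest at 363 CPM. Without MI-883 replicate 1, both *Ugt2b34* and *Ugt2b35* were called by edgeR.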

How the results depend on the processing

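Of the 10 genes, 2 were called higher by edgeR with TMM, with DESeq2 size factors, with total counts, with 60 counts in every liver, with filterByExpr, with no filter and with a surrogate variable, and 0 were called lower under any alternative run. DESeq2 called 3 of them, 463 of all tested genes and 11 pathway genes, compared with 136 and 5 in edgeR, and with 60 counts in every liver 449 and 9. The surrogate variable gave 423 and 9. Leaving out single livers gave 0 to 2 of the 10 genes, 62 to 203 of all tested genes and 2 to 7 pathway genes, and leaving out MI-883 replicates 2 and 3 together gave 0, 54 and 2. The cause of these shifts was not tested, except that the last fits have fewer livers.

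Deviations of livers with the same replicate number correlated at 0.360, -0.121, -0.102, 0.0761 and 0.0790, and 0 of 5 livers correlated best with its own number, so the numbers were not taken to pair the livers. With the replicate block, 1 of the 10 genes (*Ugt2b35*), 89 of all tested genes and 2 pathway genes were called, and *Ugt2b34* had a log2 difference of 0.45 (edgeR, adjusted *P* = 0.0737). *Ugt1a1*, *Abcc3* and *Entpd5* lost their calls with the block (adjusted *P* = 0.0529, 0.0949 and 0.113).

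The log2 difference of *Ugt3a2* was 0.040 with total counts, 0.014 with 60 counts in every liver and 0.013 with DESeq2 and that filter, and -0.041 to 0.048 without single livers. *Ugp2* was at -0.058 without MI-883 replicates 2 and 3, and at -0.028 to 0.086 without single livers, and *Slc35d1* at -0.051 to 0.098. Shared stretches of 50 bases gave 41.7% for *Ugt2b5*, 37.4% for *Ugt2b38* and 18.3% for *Ugt2b37*, and of 150 bases 19.5%, 19.2% and 0. With 5 livers a group, no exact *P* under 0.00794 was possible, and the depth left *Ugt2b37* at 84 to 254 counts per liver.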
